A study of Saccharomyces cerevisiae with 8 samples.

Results

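The 26S proteasome of budding yeast is described here through the genes of its subunits. The genes were taken by standard symbol: RPN1 to RPN13 without RPN4, RPT1 to RPT6, PRE1 to PRE10, PUP1 to PUP3 and SCL1. This gave 32 genes of the 6256 gene probes on the array, 14 of the core particle and 18 of the regulatory particle. RPN4, which codes for the transcription factor that regulates them, was described apart. Each of these genes had 1 probe in 2 spots, and all 32 and RPN4 passed the filter on dim probes, as did 5938 probes in all.

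RNA of Saccharomyces cerevisiae was hybridised to 8 Agilent 2-colour arrays, 5 from samples taken 6 h into a fermentation assay (T6h) and 3 from samples taken at its start (T0h). At T6h there were 2 arrays of CAT-1, 2 of JP1 and 1 of BY4741. At T0h there was 1 array each of CAT-1, JP1 and PE-2. CAT-1 and PE-2 are labelled as diploid heterothallic yeasts and JP1 as a diploid homothallic yeast, each isolated at a Brazilian sugarcane plant, and BY4741 is a laboratory strain. All cells came from repeated batches in rich glucose medium. Every sample carried the red dye, Cy5, and was set against BY4741 RNA of T0h in the green dye, Cy3. PE-2 was thus seen at T0h alone, and BY4741 at T0h only as the reference of every array. Values are log2 ratios of red over green, so that 0 is the level of BY4741 at T0h and a difference of 1 is a 2-fold change in RNA. The deposited design calls the samples of each time biological replicates, but they are partly of different strains, so the p-values below measure the spread between these arrays.

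The proteasome degrades proteins that carry chains of ubiquitin. Its barrel-shaped core particle is built of outer alpha rings, which gate the entry, and inner beta rings, which hold the peptidases. The regulatory particle caps the barrel: its base holds a ring of ATPases that unfold the substrate, scaffold subunits and ubiquitin receptors, and its lid removes the ubiquitin. Rpn4 binds a motif shared by the promoters of most subunit genes and is itself a short-lived substrate of the proteasome, which gives the genes a common feedback control.

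Of the 8 arrays, 6 lay on 1 slide and 2, CAT-1 T6h replicate 5 and JP1 T6h replicate 4, on another, where the green background was high. Green signal was well above background for 11.2% and 20.8% of gene probes on the arrays of the second slide, against 89.9% to 91.3% on those of the first. Red signal of all 32 subunit genes and of RPN4 was well above background on 8 of 8 arrays and saturated on none. Green signal on the second slide was well above background on 0 of 2 arrays for RPT6 and RPN7 and on 1 of 2 for PUP1, PRE1, RPN2, RPN5 and RPN12. HIS3, LEU2, MET17 and URA3, genes that BY4741 lacks, had log2 ratios between -0.19 and 0.02 on the array labelled BY4741 T6h. On the other 7 arrays they lay between 0.77 and 8.89. This check tells BY4741 from the other strains only. It does not tell CAT-1, JP1 and PE-2 from each other, nor T6h from T0h. In the deposited value table, 5 of 8 columns followed another array more closely than the array they are named for, partly one of the other time. The column named JP1 T0h had a correlation of 0.9998 with the first-slide JP1 array of T6h. That named CAT-1 T0h matched the first-slide CAT-1 array of T6h as closely (0.9998), whose own column followed JP1 T0h best (0.92). The PE-2 T0h column matched none closely (0.36 at best, with BY4741 T6h). Which naming is right was not tested. All values below follow the names of the scanner files, unless the value table is named.

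**Figure D1:**
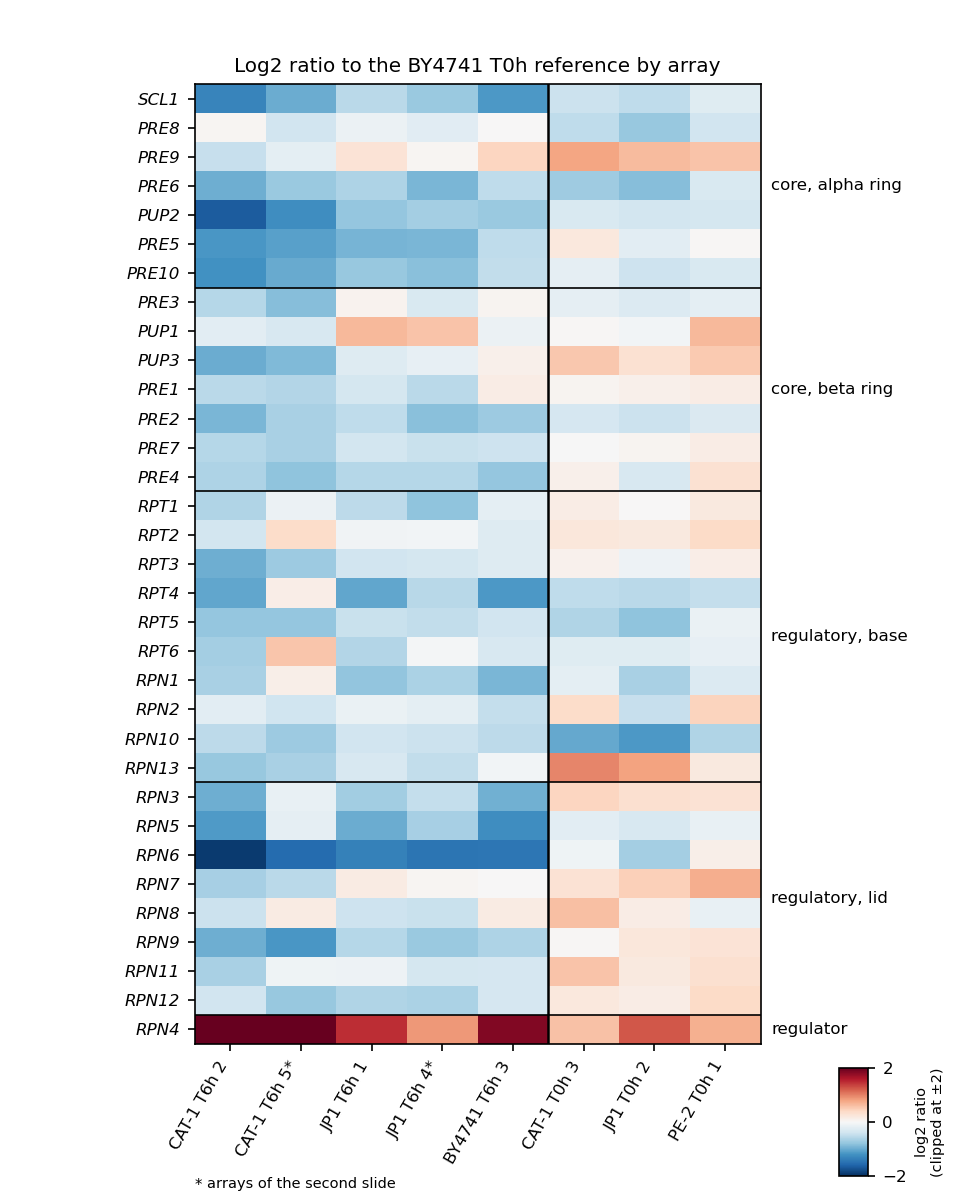
Log2 ratio to the BY4741 T0h reference (colour, clipped at 2 on either side of 0) of the 32 subunit genes and RPN4 in rows, by subcomplex, on the 8 arrays in columns, T6h left of T0h. RPN6 was the lowest subunit gene on all 5 T6h arrays and RPN10 on all 3 T0h arrays, while RPN4 lay above 0 on all 8.

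The subunit genes lay lower at T6h than at T0h as a group, by a modest amount, and few passed the test singly. In all 8 arrays, 29 of 32 genes had a difference below 0, against 49.9% of all genes, and their median difference was -0.55, against 0.00 for all genes. The test, limma's moderated test with Benjamini-Hochberg adjustment over 5938 genes at 0.05, called 6 of the 32 genes lower and 0 higher. Over all genes it called 15.6%, of which 5.93% of genes were lower and 9.72% higher. The 6 were PRE5 of the alpha ring, the ubiquitin receptor RPN13 and the lid genes RPN3, RPN6, RPN9 and RPN12. All 5 T6h arrays lay below all 3 T0h arrays for 18 of the 32 genes, or 56.2%, against 11.8% of all genes. The opposite order held for PRE8 alone, or 3.12%, against 13.2% of all genes. The RNA is that of whole cultures, so fewer cells with a transcript and less of it per cell cannot be told apart.

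On single arrays fewer subunit genes lay above the reference at T6h than at T0h. At T6h, 1 and 5 of the 32 genes lay above the reference in CAT-1, 4 and 3 in JP1 and 7 in BY4741, against 17 in CAT-1, 13 in JP1 and 18 in PE-2 at T0h. The median of the 32 genes was -0.68 and -0.64 in CAT-1, -0.47 and -0.50 in JP1 and -0.40 in BY4741 at T6h. At T0h it was 0.02 in CAT-1, -0.22 in JP1 and 0.13 in PE-2. The 5 medians at T6h thus lay below the 3 at T0h without overlap. The genes varied little among themselves, with a standard deviation over the 32 genes of 0.35 to 0.49 on each array, against 0.74 to 1.15 over all genes.

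Within JP1 and CAT-1, the strains with arrays at both times, the picture was alike. Of the 32 genes, 27 had a difference below 0, with a median of -0.56, and 4 were called lower and 0 higher: PRE5, RPN13, RPN6 and RPN9. Over all genes 19.7% were called, 6.97% lower and 12.7% higher. The 4 T6h arrays lay below both T0h arrays for 19 genes, or 59.4%, against 19.5% of all genes, and above them for PRE8 and RPN10, or 6.25%, against 21.2% of all genes. These comparisons share arrays, so the second is no independent repeat of the first.

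**Figure D2:**
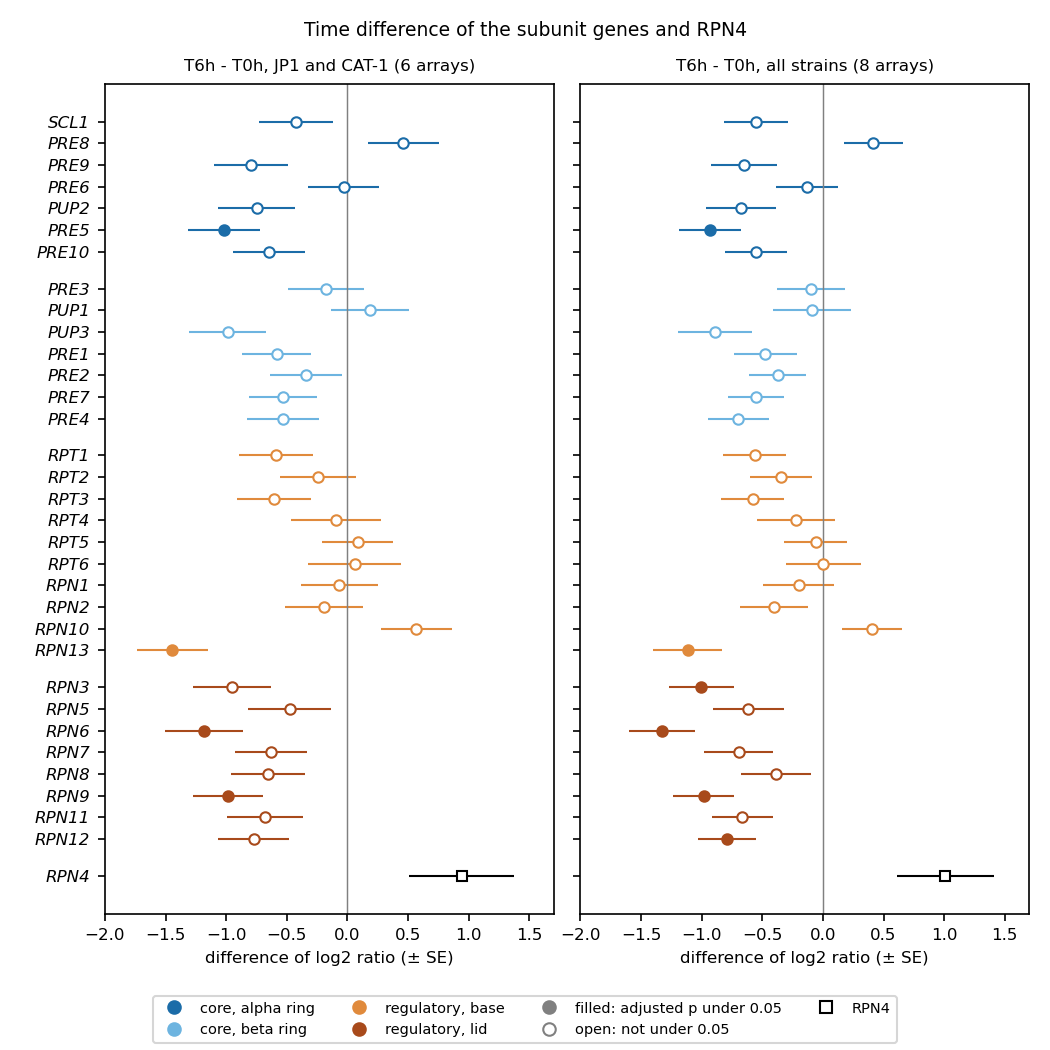
Difference of the log2 ratio, T6h minus T0h, with its standard error for each subunit gene and RPN4, in JP1 and CAT-1 (left, 4 arrays against 2) and in all strains (right, 5 arrays against 3). Filled points passed limma's test at an adjusted p of 0.05: 4 on the left and 6 on the right, all below 0. PRE8, RPN10 and, close to 0, RPT6 lay above 0 in both panels without passing, as did RPN4.

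The calls were less stable than the shift of the group. In all 8 arrays, leaving out 1 array gave between 1 and 7 called genes: 1 without CAT-1 T6h replicate 2, CAT-1 T0h or JP1 T0h, 2 without PE-2 T0h, 3 without JP1 T6h replicate 1 and 7 without BY4741 T6h. Within JP1 and CAT-1 the count was 1 without CAT-1 T6h replicate 2 and 2 without CAT-1 T6h replicate 5. Without CAT-1 T0h or JP1 T0h the time difference there came from the other strain alone, so such fits give its size only. The median of the 32 genes stayed between -0.61 and -0.47 in all 8 arrays and between -0.70 and -0.36 in JP1 and CAT-1 over all fits from the scanner files. On the first slide alone, the median was -0.56 in all strains and 3 genes were called. Median centring of each array in place of loess left 0 called genes in either comparison. In the deposited value table, whose columns partly follow arrays of the other time, the median in all strains was 0.37, with 0 called of all genes. The sign of the group's difference thus depends on which naming of the arrays is right.

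Among the genes of the alpha ring, 1 of 7 passed in either comparison. The ring, SCL1, PRE8, PRE9, PRE6, PUP2, PRE5 and PRE10, had a median difference of -0.65 in JP1 and CAT-1 and of -0.55 in all strains. PRE5, the alpha6 subunit, had log2 ratios of -1.16 and -1.09 in CAT-1, -0.93 and -0.91 in JP1 and -0.52 in BY4741 at T6h, against 0.21 in CAT-1, -0.21 in JP1 and 0.03 in PE-2 at T0h. All T6h arrays lay below all T0h arrays. Its difference in JP1 and CAT-1 was -1.02 ± 0.30 (SE), 2.03-fold lower, with an adjusted p of 0.035 in limma's fit (6 arrays). That call was lost without either CAT-1 T6h array. Without CAT-1 T0h the difference came from JP1 alone (-0.71), and without JP1 T0h from CAT-1 alone (-1.33). In all strains the difference was -0.93 ± 0.26 (SE, limma adjusted p = 0.031), a call lost without any of 5 arrays.

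PRE9, the alpha3 subunit and the alpha subunit that yeast can live without, had -0.47 and -0.19 in CAT-1, 0.27 and 0.04 in JP1 and 0.42 in BY4741 at T6h, against 0.78 in CAT-1, 0.64 in JP1 and 0.57 in PE-2 at T0h. The groups did not overlap, but the JP1 and BY4741 arrays at T6h lay closer to those of T0h than the CAT-1 arrays did. Its difference in JP1 and CAT-1, -0.80 ± 0.31 (SE), did not pass (limma adjusted p = 0.093). PRE6, the alpha4 subunit, had -0.97 and -0.74 in CAT-1, -0.61 and -0.91 in JP1 and -0.52 in BY4741 at T6h, against -0.72 in CAT-1, -0.84 in JP1 and -0.30 in PE-2 at T0h, so that all 8 arrays lay below the reference and the groups overlapped. Its difference in JP1 and CAT-1, -0.03 ± 0.29 (SE, limma adjusted p = 0.96), was the smallest of the core. PRE8, the alpha2 subunit, was the alpha gene with a difference above 0, 0.46 ± 0.30 (SE, limma adjusted p = 0.31), with the T6h arrays between -0.38 and 0.04 and the T0h arrays between -0.76 and -0.38. Those of SCL1, PUP2 and PRE10 were -0.42, -0.75 and -0.65, none of which passed.

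The beta ring had a median difference of -0.53 in JP1 and CAT-1 and of -0.48 in all strains, and none of its 7 genes passed in either. PUP3, the beta3 subunit, came closest. It had -0.99 and -0.88 in CAT-1, -0.26 and -0.17 in JP1 and 0.11 in BY4741 at T6h, against 0.53 in CAT-1, 0.30 in JP1 and 0.52 in PE-2 at T0h. The groups did not overlap, and CAT-1 lay lowest. Its difference in JP1 and CAT-1 was -0.99 ± 0.32 (SE), 1.98-fold, with a limma adjusted p of 0.051.

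The catalytic subunits, PRE3 (beta1, the caspase-like activity), PUP1 (beta2, the trypsin-like activity) and PRE2 (beta5, the chymotrypsin-like activity), did not pass in either comparison. PRE3 had -0.57 and -0.85 in CAT-1, 0.07 and -0.30 in JP1 and 0.06 in BY4741 at T6h, against -0.18 in CAT-1, -0.28 in JP1 and -0.20 in PE-2 at T0h. The CAT-1 arrays of T6h lay below every T0h array, while the JP1 arrays of T6h lay on either side of them, and the difference in JP1 and CAT-1 was -0.18 ± 0.31 (SE, limma adjusted p = 0.74). PUP1 had -0.21 and -0.32 in CAT-1, 0.65 and 0.57 in JP1 and -0.12 in BY4741 at T6h, against 0.03 in CAT-1, -0.05 in JP1 and 0.64 in PE-2 at T0h. At T6h JP1 thus lay above CAT-1 and BY4741, and the difference with time in JP1 and CAT-1 was 0.18 ± 0.32 (SE, limma adjusted p = 0.73). PRE2 had -0.92 and -0.65 in CAT-1, -0.50 and -0.84 in JP1 and -0.73 in BY4741 at T6h, against -0.33 in CAT-1, -0.43 in JP1 and -0.29 in PE-2 at T0h. The groups of PRE2 did not overlap, but its difference of -0.34 ± 0.30 (SE) did not pass (limma adjusted p = 0.46). Of the remaining beta genes, PRE1, PRE7 and PRE4 differed by -0.58, -0.53 and -0.53, and none passed.

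The median of the alpha ring lay below that of the beta ring on 8 of 8 arrays. This gap, alpha minus beta, was -0.58 and -0.34 in CAT-1, -0.26 and -0.30 in JP1 and -0.39 in BY4741 at T6h, against -0.34 in CAT-1, -0.36 in JP1 and -0.45 in PE-2 at T0h. The ranges at the 2 times overlapped. As every array shares the same green reference RNA, the 8 values are not independent, and the gap is a description.

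The base of the regulatory particle had the smallest median difference of the 4 subcomplexes with both slides in, -0.14 in JP1 and CAT-1 and -0.28 in all strains. On the first slide alone it was -0.56 in CAT-1 and -0.27 in JP1, next to -0.58 and -0.26 for the beta ring. Its 6 ATPase genes, RPT1 to RPT6, had differences between -0.60 (RPT3) and 0.09 (RPT5) in JP1 and CAT-1, and none passed in either comparison. RPT6 had -0.68 and 0.56 in CAT-1, -0.58 and -0.04 in JP1 and -0.32 in BY4741 at T6h, against -0.25 in CAT-1, -0.24 in JP1 and -0.16 in PE-2 at T0h. The highest T6h values were those of the second slide, where its green signal was not well above background. The difference in JP1 and CAT-1, 0.06 ± 0.38 (SE, limma adjusted p = 0.93), was the smallest of the regulatory particle, and on the first slide alone it was -0.39. The sign of RPT6 also turned with other background corrections and under median centring, and 6 of 14 alternative fits kept it.

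RPN1, a scaffold subunit of the base, had -0.65 and 0.12 in CAT-1, -0.79 and -0.63 in JP1 and -0.91 in BY4741 at T6h, against -0.19 in CAT-1, -0.65 in JP1 and -0.28 in PE-2 at T0h. The CAT-1 array of the second slide stood apart from the other 4 T6h arrays, and the groups overlapped (-0.07 ± 0.32, SE, limma adjusted p = 0.91). RPN2, the other scaffold, differed by -0.19 ± 0.32 (SE), with 0.37 in CAT-1, -0.46 in JP1 and 0.45 in PE-2 at T0h, so that JP1 alone was low before the fermentation.

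The ubiquitin receptors of the base lay far apart at T0h and close together at T6h. RPN13 had -0.75 and -0.64 in CAT-1, -0.33 and -0.50 in JP1 and -0.05 in BY4741 at T6h, against 0.98 in CAT-1, 0.81 in JP1 and 0.20 in PE-2 at T0h. The groups did not overlap, and RPN13 was the highest subunit gene in CAT-1 and JP1 at T0h. It had the largest fall of the 32 genes in JP1 and CAT-1, -1.45 ± 0.29 (SE), 2.73-fold lower, with a limma adjusted p of 0.0061. This call held in each fit that left out 1 T6h array. Without CAT-1 T0h the fall came from JP1 alone (-1.22), and without JP1 T0h from CAT-1 alone (-1.67). In all strains it was -1.12 ± 0.28 (SE, limma adjusted p = 0.021), a call lost without CAT-1 T0h, JP1 T0h or CAT-1 T6h replicate 2. RPN10 had -0.53 and -0.73 in CAT-1, -0.38 and -0.42 in JP1 and -0.53 in BY4741 at T6h, against -1.02 in CAT-1, -1.15 in JP1 and -0.60 in PE-2 at T0h. It was the lowest subunit gene on each T0h array, and its difference in JP1 and CAT-1 was 0.57 ± 0.29 (SE), which did not pass (limma adjusted p = 0.20).

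In the lid, all 8 genes taken by symbol had a difference below 0 in both comparisons, with a median of -0.73 in JP1 and CAT-1 and of -0.74 in all strains. SEM1, a further lid subunit outside the symbol rule, was kept with the associated factors. Its T6h arrays lay between -0.53 in CAT-1 and 1.13 in BY4741, and its T0h arrays between -0.15 and 0.20, so they overlapped. RPN6, a scaffold that ties the lid to the core, was the lowest subunit gene on all 5 T6h arrays. It had -1.91 and -1.54 in CAT-1, -1.35 and -1.46 in JP1 and -1.44 in BY4741 at T6h, against -0.08 in CAT-1, -0.68 in JP1 and 0.12 in PE-2 at T0h. All T6h arrays lay well below the lowest T0h array. Its difference was -1.33 ± 0.27 (SE) in all strains, 2.51-fold lower, with a limma adjusted p of 0.0076, and this call held in each of the 8 fits that left out 1 array. In JP1 and CAT-1 it was -1.18 ± 0.32 (SE, limma adjusted p = 0.026), a call lost without either CAT-1 T6h array. Without CAT-1 T0h this difference came from JP1 alone (-0.73), and without JP1 T0h from CAT-1 alone (-1.64).

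RPN9, another structural lid subunit, had -0.97 and -1.17 in CAT-1, -0.57 and -0.74 in JP1 and -0.62 in BY4741 at T6h, against 0.02 in CAT-1, 0.23 in JP1 and 0.28 in PE-2 at T0h. The groups did not overlap, and the difference in JP1 and CAT-1 was -0.98 ± 0.29 (SE), 1.98-fold lower (limma adjusted p = 0.036). Its call there was lost in each fit without 1 T6h array except that without JP1 T6h replicate 1. The fits without a T0h array gave the difference of 1 strain, -0.88 in JP1 and -1.09 in CAT-1. In all strains it was -0.98 ± 0.25 (SE, limma adjusted p = 0.022), a call lost without CAT-1 T6h replicate 2 or any T0h array. RPN3 and RPN12 passed in all strains, at 2.00-fold and 1.73-fold lower, with limma adjusted p of 0.028 and 0.046. RPN12 had a difference of -0.79 ± 0.24 (SE), with T6h arrays between -0.76 and -0.34 and T0h arrays between 0.15 and 0.38, and RPN3 had T6h arrays between -0.98 and -0.16 and T0h arrays between 0.29 and 0.43. The call of RPN3 was lost without any of 5 arrays and that of RPN12 without any of 7. RPN11, the deubiquitinase of the lid, had a difference of -0.68 ± 0.31 (SE) in JP1 and CAT-1 (limma adjusted p = 0.16), with the groups apart: the T6h arrays lay between -0.65 and -0.09 and the T0h arrays between 0.20 and 0.57. RPN5, RPN7 and RPN8 differed by -0.48, -0.63 and -0.65, and none passed.

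Set against each other, the core and the regulatory particle had nearly the same median difference, -0.53 and -0.60 in JP1 and CAT-1 and -0.55 and -0.57 in all strains. Within the regulatory particle the lid and the base parted. The lid median, minus that of the base, was -0.15 and -0.11 in CAT-1, -0.18 and -0.10 in JP1 and -0.13 in BY4741 at T6h, against 0.30 in CAT-1, 0.52 in JP1 and 0.28 in PE-2 at T0h. The lid thus lay below the base on 5 of 5 arrays at T6h and above it on 3 of 3 at T0h. The arrays share the same green reference RNA, so these counts are not independent either, and this order is a description. The core median, minus that of the regulatory particle, was -0.09 and -0.48 in CAT-1, 0.04 and -0.06 in JP1 and -0.09 in BY4741 at T6h, against -0.21 in CAT-1, -0.25 in JP1 and -0.25 in PE-2 at T0h. At T6h the gap was smaller than at T0h on 4 of 5 arrays. The exception was CAT-1 on the second slide, where regulatory genes read higher than on the other CAT-1 array by a median of 0.43 and core genes by 0.09.

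**Figure D3:**
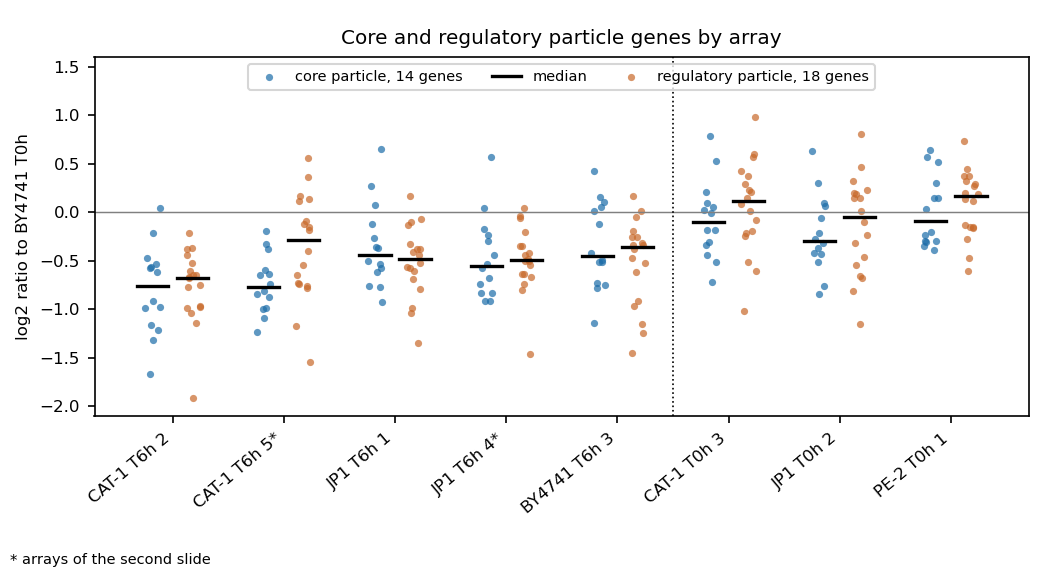
Log2 ratio to the BY4741 T0h reference of the 14 core and 18 regulatory particle genes (points) with their medians (bars) on each array, T6h left of T0h. The core medians ran from -0.77 to -0.44 at T6h and from -0.30 to -0.08 at T0h, and the regulatory medians from -0.68 to -0.29 at T6h and from -0.04 to 0.16 at T0h.

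Taken by strain, T6h minus T0h had a median over the 32 genes of -0.70 in CAT-1 (28 genes below 0), -0.36 in JP1 (25 below 0) and -0.40 in BY4741 (25 below 0), where the BY4741 change is its single T6h array against the T0h reference. The strains shared the direction of the group but not of each gene. PRE9 differed by -1.11 in CAT-1 and -0.48 in JP1, against 0.42 in BY4741. PUP3 differed by -1.46 in CAT-1 and -0.51 in JP1, against 0.11 in BY4741. RPN13 differed by -1.67 in CAT-1 and -1.22 in JP1, against -0.05 in BY4741. In these genes BY4741 stood near or above its own start while the industrial strains stood well below theirs. The reverse held for RPT4, with 0.06 in CAT-1 and -0.25 in JP1 against -1.15 in BY4741, and for RPN1, with -0.08 in CAT-1 and -0.06 in JP1 against -0.91 in BY4741. The size of this gap rested in part on the second slide. On the first alone it was smaller but kept its direction: RPT4 had -0.53 in CAT-1 and -0.49 in JP1, and RPN1 -0.46 in CAT-1 and -0.13 in JP1. In BY4741, 4 of the 32 genes were more than 2-fold lower (SCL1, RPT4, RPN5 and RPN6) and 0 more than 2-fold higher, against 13.1% and 15.6% of all genes.

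**Figure D4:**
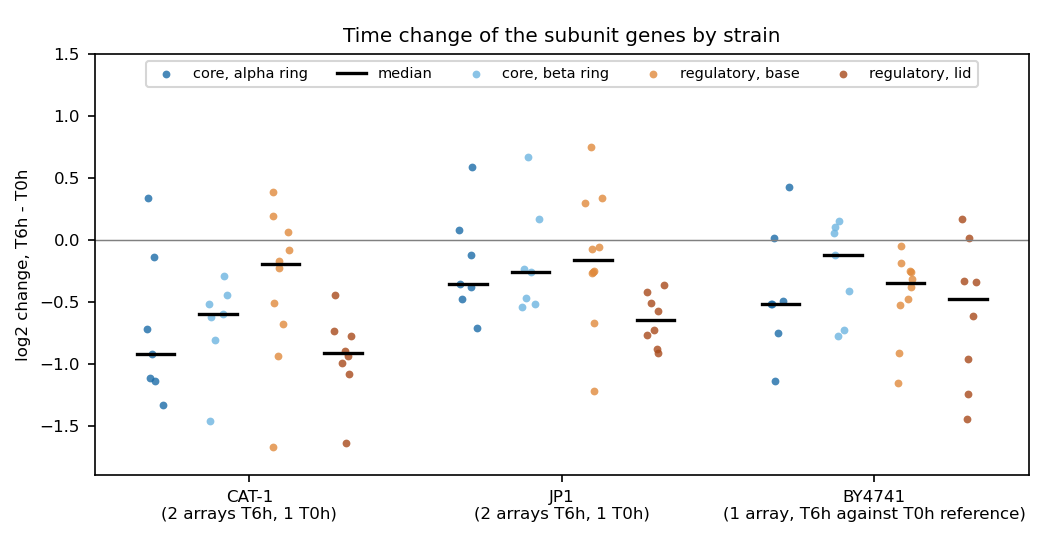
Log2 difference, T6h minus T0h, of each subunit gene (points) by subcomplex with medians (bars) in CAT-1, JP1 and BY4741; no error is drawn as each strain has 1 sample at T0h. The lid genes had medians of -0.92 in CAT-1, -0.65 in JP1 and -0.48 in BY4741, and the base genes -0.20, -0.16 and -0.35, where the first slide alone gave base medians of -0.56 in CAT-1 and -0.27 in JP1.

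The difference between the industrial strains and BY4741 in their time change was tested over 7 arrays. Of the 32 genes 0 passed limma's test, against 11.7% of all genes (6.53% higher, 5.2% lower). At an unadjusted p under 0.05 in limma there were 4 of the 32, against 29.3% of all genes. In simulated data this test recovered 0 of 100 genes moved 2-fold and 0 of 100 moved 4-fold. The simulation had a set spread and few moved genes, while the fit of the arrays called 11.7% of all genes. Its counts therefore do not give the power of the test on these arrays. The largest differences were those of RPN13, -1.40 ± 0.44 (SE, limma adjusted p = 0.074), and PRE9, -1.22 ± 0.45 (SE, limma adjusted p = 0.11). RPN13 passed without JP1 T6h replicate 1 (limma adjusted p = 0.049). The median over the 32 genes was 0.01. BY4741 entered with a single array against the green channel, so in this test a dye effect cannot be told apart from the strain, and the spread of BY4741 is taken from the other arrays.

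CAT-1 lay lower than JP1 in its time change for 27 of 32 genes, or 84.4%, against 45.7% of all genes. The 27 included all 14 of the core. The median difference was -0.57 for the core and -0.19 for the regulatory particle, against 0.08 for all genes. The regulatory median was -0.44 without CAT-1 T6h replicate 5, beside -0.60 for the core, and -0.91 under median centring, beside -1.25 for the core. No gene passed this interaction test in limma, among the 32 or all genes (0% called, 341 genes at an unadjusted p under 0.05). In simulated data this test recovered 0 of 100 genes moved 2-fold and 0 of 100 moved 4-fold. Its lack of calls thus does not show that the strains changed alike. RPN2 and PUP1 had the largest differences, -0.97 ± 0.58 and -0.96 ± 0.58 (SE, limma adjusted p = 0.96 for both). With 1 array of each strain at T0h, a low or high value of that array enters the difference of every gene.

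With time taken out, no subunit gene passed between CAT-1 and JP1: limma called 0 of 32, against 0.101% of all genes (0.0674% higher, 0.0337% lower). At an unadjusted p under 0.05 in limma there were 0 of 32, against 15.2% of all genes. The median difference was -0.03. PUP1 at -0.56 ± 0.30 and RPN7 at -0.54 ± 0.28 (SE, limma adjusted p = 0.40 and 0.39) differed most. At T6h, JP1 and CAT-1 set against BY4741 gave 0 called of 32 and of all genes (0% called, 895 genes at an unadjusted p under 0.05, none of them a subunit gene). In simulated data the T6h comparison recovered 0 of 100 genes moved 2-fold and 56 of 100 moved 4-fold. Here PUP3 at -0.68 ± 0.49 and PRE1 at -0.66 ± 0.41 (SE, limma adjusted p = 0.58 and 0.52) differed most, around a median of -0.21. These medians moved with the scaling: under median centring in place of loess, the median of CAT-1 against JP1 was -0.90 and that of JP1 and CAT-1 against BY4741 was 0.29.

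Before the fermentation the subunit genes of the industrial strains lay on either side of their level in BY4741, with a median of 0.03 over the 32 genes, -0.11 in the core and 0.12 in the regulatory particle. Of the 32 genes limma called 2 higher and 4 lower in CAT-1, JP1 and PE-2 than in the BY4741 reference, 18.8% beside the 32.7% called among all genes (15.2% higher, 17.5% lower). PRE9, at 0.66 ± 0.15, and RPN13, at 0.66 ± 0.20, were higher (SE, 3 arrays, limma adjusted p = 0.020 and 0.044). RPN10 at -0.92 ± 0.18, PRE6 at -0.62 ± 0.18, PRE8 at -0.55 ± 0.16 and RPT4 at -0.51 ± 0.15 were lower (SE, limma adjusted p = 0.011, 0.037, 0.041 and 0.042). The count of 6 was 0 without CAT-1 T0h and 2 without JP1 T0h. The comparison leaves out the spread of BY4741, and a dye effect cannot be told apart from the strain.

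RPN4 lay higher at T6h than at T0h on most arrays, opposite in sign to most subunit genes, but its difference did not pass. It had 2.52 and 2.57 in CAT-1, 1.48 and 0.86 in JP1 and 1.86 in BY4741 at T6h, against 0.59 in CAT-1, 1.24 in JP1 and 0.71 in PE-2 at T0h. All 8 arrays lay above the BY4741 T0h reference, and only the lower JP1 array of T6h fell among those of T0h. The difference with time was 1.01 ± 0.40 (SE) in all strains, with a limma adjusted p of 0.11. It passed without JP1 T6h replicate 4 (1.26, limma adjusted p = 0.036). In JP1 and CAT-1 it was 0.94 ± 0.43 (SE, limma adjusted p = 0.16), where CAT-1 alone had 1.96 and JP1 alone -0.07, against 1.86 in BY4741. The fit without JP1 T0h takes the time difference from CAT-1 alone, and that without CAT-1 T0h from JP1 alone. The difference between CAT-1 and JP1 in this, 2.03 ± 0.63 (SE), did not pass (limma adjusted p = 0.60). At T0h RPN4 was higher in the industrial strains than in BY4741, by 0.85 ± 0.19 (SE, 3 arrays, limma adjusted p = 0.017). The CAT-1 arrays of T6h, where RPN4 was highest, also had the lowest core medians, -0.76 and -0.77. Their regulatory medians were -0.68 and -0.29, the lowest and the highest of the T6h arrays. A link of RPN4 to the subunit genes was not tested.

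**Figure D5:**
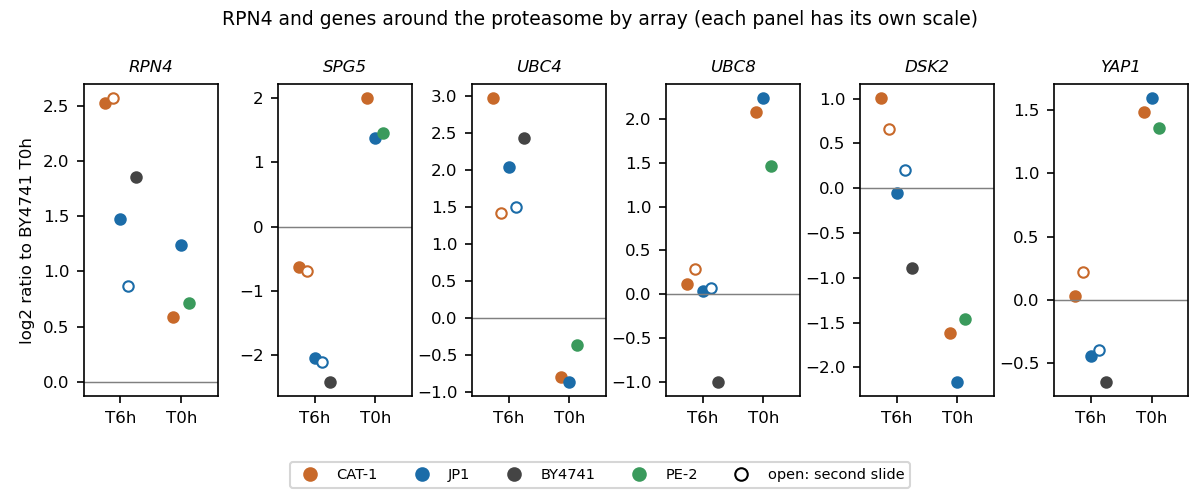
Log2 ratio to the BY4741 T0h reference on each array for RPN4 and for SPG5, UBC4, UBC8, DSK2 and YAP1, T6h left of T0h, by strain (colour); open points are arrays of the second slide and each panel has its own scale. The 5 genes other than RPN4 had no overlap between T6h and T0h, while RPN4 overlapped through JP1.

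Around the proteasome, 59 genes in 8 lists were followed: assembly chaperones, associated factors, ubiquitin genes, ubiquitin-conjugating enzymes (E2), ubiquitin ligases (E3), shuttles with the Cdc48 complex, deubiquitinases and regulators of RPN4. The deubiquitinase list also holds RFU1, which is no deubiquitinase itself. In all strains limma called 5 of them higher and 4 lower at T6h, 15.3% beside the 15.6% of all genes. Single members moved further than any subunit gene. SPG5, a proteasome regulator of stationary phase, had -0.63 and -0.69 in CAT-1, -2.05 and -2.11 in JP1 and -2.42 in BY4741 at T6h, against 2.00 in CAT-1, 1.38 in JP1 and 1.46 in PE-2 at T0h, a difference of -3.20 ± 0.44 (SE, limma adjusted p = 0.00098). UBC4, an E2 enzyme for short-lived and damaged proteins, had 2.97 and 1.42 in CAT-1, 2.04 and 1.51 in JP1 and 2.44 in BY4741 at T6h, against -0.80 in CAT-1, -0.86 in JP1 and -0.37 in PE-2 at T0h, a difference of 2.76 ± 0.37 (SE, limma adjusted p = 0.00078). For either gene the T6h and T0h arrays lay far apart, and the call held in all 17 other fits from the scanner files.

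Among the E2 genes, 2 of 10 were higher and 1 lower in all strains: besides UBC4, RAD6 at 1.14 ± 0.28 and UBC8, whose product marks gluconeogenic enzymes for degradation, at -2.02 ± 0.34 (SE, limma adjusted p = 0.017 and 0.0025). Among the shuttles, 1 of 7 was higher, DSK2 at 1.93 ± 0.40 (SE, limma adjusted p = 0.0078), and among the E3 genes 1 of 11, the nuclear quality control ligase SAN1, at 1.54 ± 0.35 (SE, limma adjusted p = 0.012). Of the 8 assembly chaperones, ADD66 alone was higher, at 1.28 ± 0.25, and of the 7 associated factors SPG5 and FUB1 were lower, FUB1 at -0.90 ± 0.28 (SE, limma adjusted p = 0.0052 and 0.046). None of the 5 ubiquitin genes and none of the 7 genes of the deubiquitinase list passed (lowest limma adjusted p 0.18 and 0.36). Of the 4 regulators of RPN4, YAP1, an oxidative stress factor, was lower, at -1.72 ± 0.27 (SE, limma adjusted p = 0.0020). Among the fits with an array left out, the call of SAN1 was lost without JP1 T0h and that of RAD6 without CAT-1 T0h or PE-2 T0h. That of FUB1 was lost without any of 7 arrays. Over all 17 other fits from the scanner files, the call held in 16 for ADD66, 15 for DSK2, 13 for SAN1, 9 for RAD6 and 6 for FUB1.

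Within JP1 and CAT-1 these 8 lists held 4 genes higher and 5 lower, again 15.3%, beside 19.7% of all genes. SPG5 (-3.06), UBC8 (-2.02) and YAP1 (-1.68) were lower and UBC4 (2.82), DSK2 (2.34), SAN1 (1.67) and ADD66 (1.30) higher, in limma at an adjusted p of 0.0095 or less. The assembly chaperones POC4, of the alpha ring, and NAS6, of the base, were lower as well, at -1.33 ± 0.32 and -1.10 ± 0.29 (SE, limma adjusted p = 0.015 and 0.024). Without 1 array of T0h the differences of these genes came from 1 strain alone, and such fits do not check the calls. Over the 14 alternative fits POC4 ranged from -1.79 to -0.88 and NAS6 from -1.19 to -0.96. The median difference was -0.35 over the 8 assembly chaperones, 0.27 over the E2 genes and 0.35 over the ubiquitin genes, against -0.56 over the 32 subunit genes.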

How the data were processed

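RNA from 8 samples was measured on 2-colour Agilent arrays, sample in red and BY4741 T0h RNA in green. The deposited scanner files hold spot intensities from Agilent Feature Extraction 10.10.1.1, per the file headers, together with its log10 ratio of red over green and its flags. The authors' deposited value table holds log ratios whose making is not given in the sources used here; the submitters' processing notes name limma, version not given. Per the labels' protocols, samples were red on every array, though the labelling notes speak of a dye swap among the industrial strains.

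From the median intensities (the files used here hold no mean), ratios were computed in limma 3.58.1 under R 4.3.3. The normexp method (offset 50) corrected the background, and each array was normalised by loess with a span of 0.3 and control spots at weight 0. Spots marked uneven or outlying were dropped, and the 2 spots of a probe were averaged. A probe was kept, as 5938 of 6256 were, if red or green passed the scanner software's background test on 3 or more arrays. Moderated linear models were fitted over all kept probes, two-sided, with Benjamini-Hochberg adjustment and a threshold of 0.05. Time was compared in all arrays, and also within CAT-1 and JP1, there with a strain effect in the model. Strains were compared in 5 further contrasts. The fits were tested on simulated data first, with a spread that was set and not taken from the arrays. Of 100 genes moved 2-fold, the time comparison recovered 29 in all arrays and 17 within CAT-1 and JP1. Of 100 moved 4-fold it recovered 100 and 95. CAT-1 against JP1 recovered 21 of 100 at 2-fold and 98 at 4-fold, and the T0h comparison 72 and 100.

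Symbols came from the RefSeq table of assembly R64 for 5756 probes and were not matched for 500. All 32 subunit genes and RPN4 were allowed to be named. Values per array were given for RPN4, PRE3, PUP1, PRE2 and, per particle, the 3 genes with the largest and the 2 with the smallest difference in JP1 and CAT-1, with those of RPN10 and summaries of further genes added after their values were seen. In other comparisons and lists the genes past the threshold were named up to a fixed number, by size. The members and lists were chosen with earlier results of these data known. Promoter and protein sequences were not used here. The number of arrays and, on the second slide, the green background limit the precision. Alternatives were other background corrections, normalisations and filters, the slide as a block or slide 1 alone, a replicate block, the value table, and each array left out.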

Additional observations from a re-analysis of the deposited data

Results flagged for a closer look

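RPN1 read 0.12 on CAT-1 T6h replicate 5, while the other 4 T6h arrays lay between -0.91 and -0.63, a gap beyond Dixon's limit for 5 values. Of 35 values tested this way, the 32 subunit genes, RPN4 and the medians of both particles, it was the 1 past the limit, and chance passes about 1 in 20. That array is of the second slide.

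The time difference of JP1 and CAT-1 departed from that of BY4741 in 7 genes of the ubiquitin, assembly, E3 and shuttle lists by limma's test (7 arrays). These are 7 of 59 genes, or 11.9%, near the 11.7% called among all genes. DSK2, a ubiquitin shuttle, had 2.34 in JP1 and CAT-1 against -0.89 in BY4741, a gap of 3.23. The other 6 lay lower in the industrial strains. RPS31, a ubiquitin gene fused to a ribosomal protein, had -0.13 against 2.91, a gap of -3.04. RPL40B had 0.25 against 2.41 (-2.16) and RPL40A 0.60 against 2.41 (-1.81); these are near-identical copies whose probes may not tell them apart. NAS6, a base chaperone, had -1.10 against 1.16 (-2.26) and POC4, a core chaperone, -1.33 against 0.57 (-1.899). SSM4, a ligase of the endoplasmic reticulum, had -0.36 against 1.54 (-1.899). BY4741 had 1 array here, and the 7 calls were lost without either CAT-1 T6h array and under every other background correction or normalisation.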

How the results depend on the processing

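The depth limit is the signal: on the second slide the green channel was mostly at background. For T6h against T0h, the count of called subunit genes (6) was 0 under median centring, 1 with the scanner software's processed ratio, 2 with the slide as a block, 3 on slide 1 alone, 0 in the value table, and 1 to 7 with an array left out; all genes called were 929 against 439 under median centring, 0 in the value table and 446 to 1128 with an array left out. Arrays with the same number at T6h and T0h are of different strains (correlations of their deviations -0.07, -0.14 and -0.15), and the replicate block gave 1 called and 536 of all genes. Within JP1 and CAT-1 the count (4) was 1 with no background correction, plain subtraction or slide 1 alone. It was 0 under median centring or the processed ratio and 1 to 4 with a T6h array left out. Medians ran from -0.70 to -0.36 with any array left out, where fits without a T0h array rest on 1 strain. All genes called were 1169, against 509, 517, 715, 339 and 549 in the same order and 854 to 1169 without a T6h array. At T0h the count (6) was 2 under median centring or the processed ratio and 0 to 6 with an array left out, with 1939 of all genes called against 538 to 1929 with an array left out. The cause was not tested.

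Medians moved as follows. At T6h, CAT-1 and JP1 set against BY4741 gave 0.29 under median centring. CAT-1 against JP1 gave -0.90 under median centring and -0.18 with the processed ratio. The CAT-1 against JP1 difference in time gave -0.46 with no background correction, -0.51 with subtraction, -1.08 under median centring, -0.57 with the processed ratio and -0.48 to -0.35 with an array left out. That of JP1 and CAT-1 against BY4741 gave -0.021 with subtraction, 0.37 under median centring, -0.068 with the processed ratio, -0.11 with the slide as a block and -0.14 to 0.15 with an array left out, where 0 to 1 subunit genes were called; of all genes 697 were called, against 0 with no correction, subtraction or the processed ratio, 2 under median centring and 2 to 1339 with an array left out. CAT-1 against JP1 called 6 genes in all, against 0 to 106 over its alternatives. The strain contrasts of time were not run on slide 1 alone, which leaves no residual degrees of freedom.

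In the value table the T6h against T0h median was 0.37, and signs turned for SCL1 0.17, PRE8 -0.049, PRE9 0.77, PRE6 0.36, PUP2 0.55, PRE5 0.44, PRE10 0.33, PRE3 0.092, PUP1 0.044, PUP3 0.46, PRE1 0.25, PRE2 0.39, PRE7 0.28, PRE4 0.20, RPT1 0.40, RPT2 0.33, RPT3 0.43, RPT4 0.63, RPT5 0.38, RPN1 0.48, RPN13 0.36, RPN3 0.47, RPN5 0.45, RPN6 0.85, RPN7 0.53, RPN8 0.73, RPN9 0.36, RPN11 0.35, RPN12 0.19, ADD66 -0.080, SPG5 0.42, UBC4 -0.56, UBC8 0.26, SAN1 -0.10, YAP1 0.42 and DSK2 -0.51. From the scanner files, small differences turned. RPT6 was -0.11 with no background correction, -0.14 with subtraction, -0.24 under median centring, -0.035 with the processed ratio and -0.31 with the slide block, slide 1 alone or the replicate block, where PRE3 was 0.074. For JP1 and CAT-1, RPT6 was -0.082, -0.10 and -0.075 under the first 3 of these and -0.39 with the slide block or slide 1 alone, and PRE6 was 0.12 under median centring and 0.077 with the processed ratio. RPN4 was -0.25 and -0.13 against BY4741 at T6h with no correction or subtraction, and -0.067 for CAT-1 against JP1 under median centring.

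With an array left out, T6h against T0h ranged from -0.24 to 0.030 for PRE6, -0.23 to 0.13 for PUP1, -0.20 to 0.13 for RPT5, -0.19 to 0.12 for RPT6 and -0.19 to 0.036 for PRE3. For JP1 and CAT-1 it ranged from -0.30 to 0.67 for PUP1, -0.37 to 0.13 for RPT4, -0.17 to 0.34 for RPT5, -0.14 to 0.082 for PRE6, -0.52 to 0.16 for PRE3, -0.23 to 0.31 for RPT6, -0.68 to 0.29 for RPN2, -0.073 to 1.96 for RPN4 and -0.23 to 0.10 for RPN1, and RPN4 against BY4741 at T6h from -0.24 to 0.33.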

Other observations

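At T0h, 26 of the 59 genes around the proteasome passed against the BY4741 reference, 16 higher and 10 lower in the industrial strains, or 44.1% beside 32.7% of all genes (limma, 3 arrays). The E2 genes UBC8 (1.92), UBC5 (1.07) and UBC13 (0.76) were higher and UBC4 (-0.68) lower. The ligase genes SSM4 (1.66), MUB1 (1.06), UFD4 (0.80) and UBR1 (0.67) were higher, the 4 named of 5 called among 11. MUB1 and UBR2 act together in the turnover of Rpn4, and UBR2 was not called.

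Among the assembly chaperones UMP1 (1.00), the maturation factor of the core, and NAS6 (0.95) were higher and ADD66 (-0.77) lower. SPG5 (1.62) and ECM29 (0.62), which ties core to regulatory particle, were higher and UBP6 (-0.67), a proteasome-bound deubiquitinase, lower. DSK2 (-1.75) and UBA1 (-0.96), the gene of the ubiquitin-activating enzyme, were lower, and the ubiquitin gene RPL40B (0.67), a near copy of RPL40A, was higher. Of the 7 genes of the deubiquitinase list, UBP1 (1.03) was higher and UBP3 (-0.77) and UBP14 (-0.53) lower. RFU1 (-0.80), which is in that list but is no deubiquitinase, was lower too. Of the regulators of RPN4, YAP1 (1.48) and PDR1 (0.66) were higher and HSF1 (-0.67) lower. A dye effect cannot be told apart from the strain in these values, and most of the calls were lost without CAT-1 T0h.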
